A study of Bos taurus with 12 samples.

Results

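IL1RL1 encodes the receptor for interleukin-33 (IL-33), also called ST2, and is 1 of the 27607 genes in the count table, where its identifier is ENSBTAG00000018571. It was chosen because its count differed between the fertility groups in these same libraries, so its group difference is given as a description with no test. The level of the gene was followed in every library, together with the genes of its pathway and the genes whose level moved with it. Markers of the cells that carry the receptor and of other blood cells were followed as well. Of the 27607 genes, 13012 passed the filter on low counts, and IL1RL1 was among them. It passed that filter at a level higher than only 13.6% of the genes kept, with 484 reads over the 12 libraries.

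The data are RNA-Seq counts from peripheral white blood cells (PWBCs) of 12 crossbred Simmental-Angus heifers, 1 library per heifer. The 6 fertile heifers, labelled Pregnant, conceived from the first artificial insemination (AI), and the 6 subfertile heifers, labelled Open, did not conceive from AI or from the following 60 days with bulls. Groups were assigned afterwards from the outcome, and the blood had been drawn 2 days before AI. All 12 heifers received the same estrus synchronization, with gonadotropin-releasing hormone, a progesterone insert and dinoprost, and were inseminated with semen of 1 Angus sire. The reproductive tract score (RTS) was 4 in 10 heifers and 5 in LM1247 (fertile) and LM1246 (subfertile). The labels give no age for each heifer and name the sample only as white blood cells, so each library is a mixture of leukocytes.

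IL-33 is an alarm cytokine that is released when barrier cells are damaged. It binds IL1RL1 on the cell surface, which then pairs with the accessory protein IL1RAP and signals through the adaptor MYD88 and the IRAK kinases to NF-kB and the MAP kinases. The receptor is best known on mast cells, basophils, eosinophils, type 2 innate lymphoid cells, T helper 2 cells and a share of regulatory T cells, and a soluble form of the protein binds IL-33 without signalling. Counts per gene do not separate the membrane form from the soluble form. In bulk blood, a change in the number of such cells and a change in the RNA per cell cannot be told apart.

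Library totals ranged from 14010736 to 21278761 counts, and 15625 to 16323 genes had at least 1 count. The median total of the fertile libraries was 17433279.5 and that of the subfertile libraries 17157659. The mean totals differed by no more than the spread between heifers (two-sided exact permutation of mean totals, p = 0.675). The T cell marker CD3E, the B cell marker CD79A and the leukocyte marker CD44 were counted in every library. CD3E averaged 540 counts per 1000000 (CPM) in fertile and 497 in subfertile heifers, and CD79A 549 and 496. One fertile library, LM1330, stood apart in the platelet gene ITGB3, with 1930 CPM against 106 to 552 in the other 5 fertile libraries. IL1RL1 in LM1330 was 1.09 CPM, inside the range of its group.

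IL1RL1 was higher in subfertile than in fertile heifers, and most of the difference in mean came from 2 subfertile libraries. Scaled to library size with TMM factors, its level was 2.01 CPM in LM1244, 1.13 in LM1247, 0.727 in LM1262, 1.38 in LM1286, 1.69 in LM1298 and 1.09 in LM1330, the fertile libraries. In the subfertile libraries it was 2.24 CPM in LM1246, 2.50 in LM1251, 2.08 in LM1259, 5.55 in LM1265, 1.68 in LM1283 and 5.92 in LM1313. The groups overlapped: 5 of 6 subfertile libraries lay above the highest fertile library, LM1244, while LM1283 lay below both LM1244 and LM1298.

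The reads behind these levels were few. Fertile libraries held 12 to 38 reads of IL1RL1 (24.3 ± 10.9, mean ± SD, n = 6) and subfertile libraries 29 to 110 (56.3 ± 31.5, n = 6). For LM1262, the lowest, the exact Poisson 95% interval from its 12 reads was 0.376 to 1.27 CPM, and for LM1244, the highest fertile library, it was 1.42 to 2.75 CPM from 38 reads. For LM1265 it was 4.39 to 6.92 CPM from 78 reads and for LM1313 4.86 to 7.13 CPM from 110 reads. These intervals cover counting error only.

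Ranked by level, the 10 lower libraries formed an unbroken series in which each interval overlapped that of the next library. The intervals of LM1265 and LM1313 overlapped each other and lay above those of all 10 others, the nearest being LM1251, at 1.74 to 3.48 CPM. These 2 heifers held 55.6% of the subfertile reads of IL1RL1. Their library totals, 15324968 and 17415076 counts, were inside the range of the others.

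**Figure D1:**
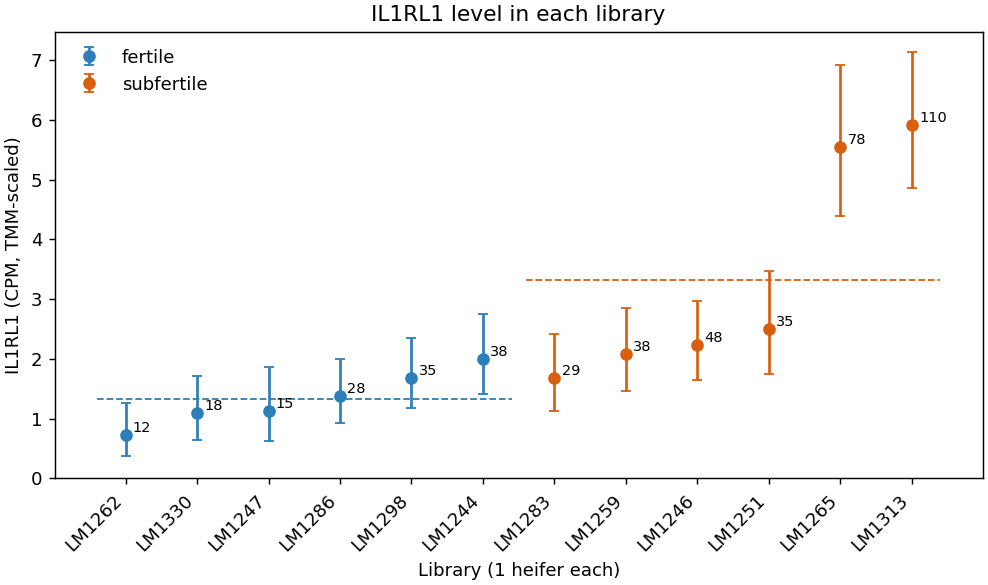
Level of IL1RL1 in each of the 12 libraries, in TMM-scaled CPM, sorted within the fertile (blue) and subfertile (orange) groups, with bars for the exact Poisson 95% interval, the read count beside each point and dashed lines at the group means. The 6 fertile libraries sit between 0.727 and 2.01 CPM and 4 subfertile libraries between 1.68 and 2.50 CPM, with LM1265 and LM1313 apart at 5.55 and 5.92 CPM.

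Fertile heifers averaged 1.34 ± 0.458 CPM (SD, n = 6) of IL1RL1 and subfertile heifers 3.33 ± 1.89 CPM (n = 6), a ratio of 2.49, and the medians were 1.26 and 2.37 CPM. The log2 fold change of the edgeR fit was 1.302 (SE 0.38) with all libraries and stayed between 1.06, without LM1313, and 1.45, without LM1244, when each library was left out. Without both LM1265 and LM1313 it was 0.66 (SE 0.34), and the mean of the 4 other subfertile libraries was 2.12 ± 0.344 CPM. All 6 subfertile libraries were above the fertile median, and 4 of 6 fertile libraries were below the lowest subfertile library.

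With all libraries the spread between heifers was larger in the subfertile group, with an SD of log2 CPM of 0.744 against 0.473 in the fertile group. On the CPM scale the SD was 1.89 in the subfertile and 0.458 in the fertile group. It was 0.344 CPM in the subfertile libraries other than LM1265 and LM1313. Leaving out the 2 highest values of only 1 group was bound to lower its SD, so the groups are not compared on that value. The difference in spread was not tested. The biological coefficient of variation that edgeR fitted over both groups was 0.444, against a median of 0.416 for the 1043 genes within 0.5 log2 CPM of IL1RL1. In the 2 heifers with an RTS of 5 the level was below the median of the group, at 1.13 CPM in LM1247 and 2.24 CPM in LM1246.

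The genes around the receptor were then examined. By the thresholds of the study a gene is called at an unadjusted P of 0.05 or less with an absolute log2 fold change of 0.5 or more, and edgeR called 182 of the 13012 genes tested, or 1.4%, among them IL1RL1, for which the call is the reason of its choice. No gene had a Benjamini-Hochberg adjusted P of 0.05 or less with edgeR, DESeq2 or voom, and the counts at an unadjusted P of 0.05 or less were 341, 417 and 299. Only 13 of the 74 symbols listed for the pathway could be matched to an identifier, because names came from tables of the study that cover 2904 of the genes tested. Part of those names belong to genes that the study had selected on these libraries, and 147 of the 2904, or 5.06%, were called. The lists below are therefore partial, and IL33, IL1RAP, SIGIRR and IL1R2 were not analysed here.

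Of the 12 pathway genes tested besides IL1RL1, edgeR, DESeq2 and voom called 0 (against 1.4%, 1.77% and 1.1% of all genes tested), and 0 had an unadjusted edgeR P of 0.05 or less. With all libraries in edgeR their log2 fold changes lay between -0.35 and 0.35, with 7 above and 5 below 0 and a median of 0.01, beside a median of 0.01 over all genes tested.

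Among the ligands of the interleukin-1 family, IL1B encodes the inflammatory cytokine interleukin-1 beta and IL18 encodes interleukin-18. IL1B ranged from 0.363 to 28.4 CPM in fertile and from 3.07 to 21.7 CPM in subfertile heifers, with a log2 fold change of 0.35 (95% interval -1.26 to 1.96), which was 1.26 without LM1262, 0.020 without LM1283 and 0.87 with voom. IL18 ranged from 3.90 to 12.04 CPM and from 4.98 to 8.36 CPM, with a log2 fold change of -0.12 (-0.71 to 0.46). Both genes overlapped over most of their range, and the two-sided exact permutation p was 0.353 for IL1B and 0.872 for IL18.

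IL18R1, a subunit of the interleukin-18 receptor, is the neighbour of IL1RL1 in the genome. In the gene order of RefSeq assembly ARS-UCD2.0, IL1RL2 comes before IL1RL1, and IL18R1, IL18RAP and SLC9A4 follow it, with the annotated intervals of IL1RL1 and IL18R1 overlapping. Of these neighbours only IL18R1 had an identifier here. Reads from the overlap could be assigned to either gene or dropped, depending on the strand column counted, which is not given in the sources used here.

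The level of IL18R1 was 15.2 CPM in LM1244, 12.9 in LM1247, 7.81 in LM1262, 11.9 in LM1286, 13.4 in LM1298 and 9.73 in LM1330. In the subfertile libraries it was 9.97 CPM in LM1246, 17.4 in LM1251, 11.98 in LM1259, 20.6 in LM1265, 11.4 in LM1283 and 11.2 in LM1313. LM1265 was the highest library for IL18R1, whereas LM1313, the highest for IL1RL1, was inside the fertile range. The log2 fold change between groups was 0.21 (95% interval -0.24 to 0.67, edgeR with Benjamini-Hochberg adjusted P = 0.9998), and 0.064 without LM1265.

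Across the 12 libraries the Pearson correlation of log2 CPM between IL18R1 and IL1RL1 was 0.590, with a Spearman rho of 0.476, and 91 of 13011 genes had a higher Pearson r. Within the fertile heifers r was 0.920 and within the subfertile heifers 0.410. Without LM1313 and LM1265, the 2 libraries farthest from the median of IL1RL1, r was 0.688. The fertile libraries ordered both genes nearly alike, with LM1262 lowest and LM1244 highest for each.

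Downstream of the receptor, MYD88, the adaptor of the receptor complex, was at 152 ± 12.5 CPM in fertile and 155 ± 20.2 CPM in subfertile heifers (n = 6 each). Its log2 fold change was 0.03 with a 95% interval of -0.18 to 0.23. IRAK1 and IRAK2, the kinases that MYD88 recruits, had log2 fold changes of -0.03 (-0.38 to 0.32) and -0.21 (-0.55 to 0.12), the latter being -0.12 without LM1330.

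MAP3K7, the kinase TAK1, and its partner TAB2 had log2 fold changes of 0.05 and 0.08, with TAB2 between 0.021 without LM1246 and 0.15 without LM1244. TNFAIP3, which ends NF-kB signalling, was at 0.08, between 0.030 without LM1265 and 0.15 without LM1259, and REL, an NF-kB subunit, at 0.00. MAPK14, the p38 kinase, had the lowest value of the list, -0.35 (SE 0.20), or -0.15 without LM1330, and the fertile library LM1330 was far from its group, at 349 CPM against 135 to 214 CPM. CXCL8, a neutrophil chemokine that the pathway can induce, had a log2 fold change of -0.28 (95% interval -1.37 to 0.81), and its two-sided exact permutation p was 0.840.

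**Figure D2:**
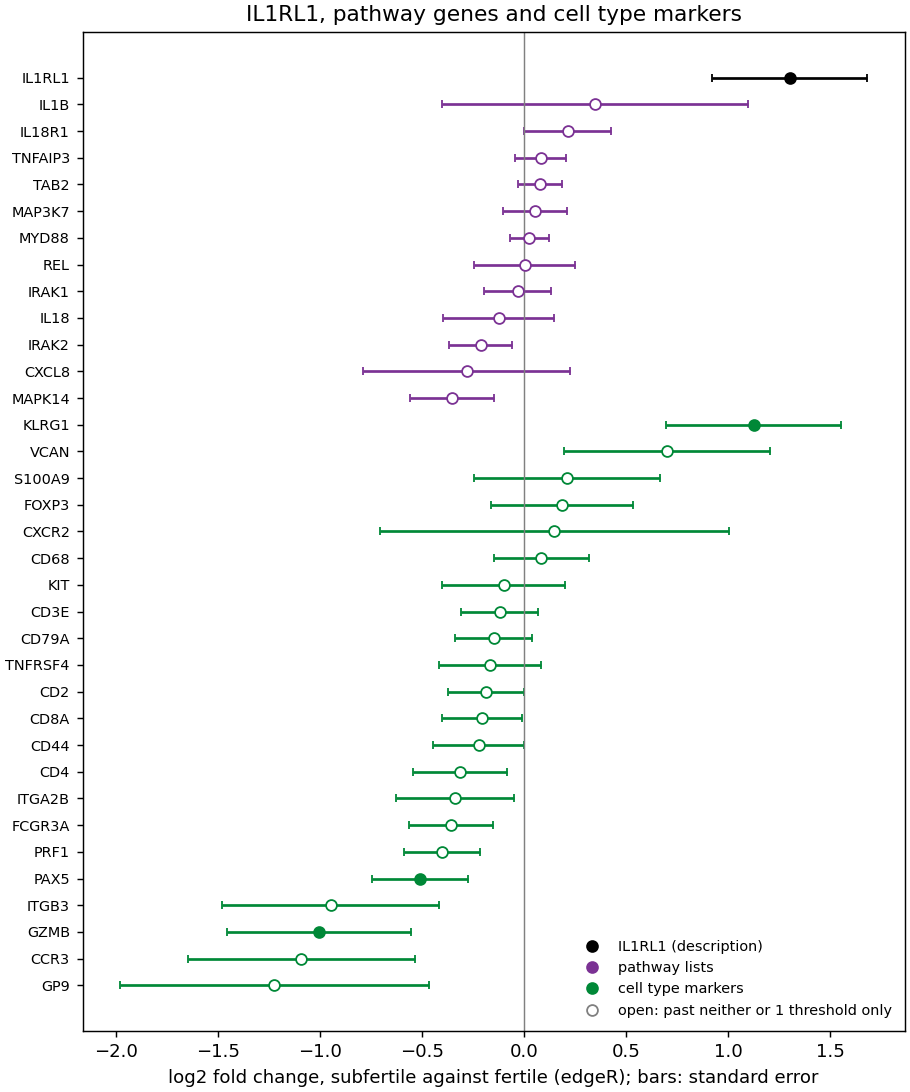
Log2 fold change of subfertile against fertile heifers from edgeR for IL1RL1 (black), the 12 pathway genes (purple) and the 22 cell type markers (green), with bars of 1 standard error and filled points for genes past both thresholds. IL1RL1 lies at 1.302, the pathway genes between -0.35 and 0.35, and the filled markers are KLRG1, PAX5 and GZMB.

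For 4 pathway genes, picked for a high r within a group after their values were seen, r with IL1RL1 differed in size between the groups. MYD88 had an r of -0.916 with IL1RL1 in fertile and 0.097 in subfertile heifers. TAB2 and REL had an r of 0.840 and 0.826 in fertile heifers and -0.209 and 0.273 in subfertile heifers. CXCL8 had an r of -0.119 in fertile and 0.896 in subfertile heifers, where LM1265 and LM1313 held its highest levels, at 44.6 and 38.5 CPM. A high r was not particular to these genes. Of the 13011 other genes, 277 had an absolute r of 0.90 or more with IL1RL1 in fertile and 91 in subfertile heifers. Of the 4 genes only MYD88 was past that limit. The difference between the groups was not tested.

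Markers of the cells that carry IL1RL1 and of other blood cells were examined next. Of 87 marker symbols in 12 lists, 22 had an identifier and all 22 were tested. Only CCR3, KIT, KLRG1, FOXP3 and TNFRSF4 came from lists of carrier cells, and the others from lists of broader or other cell types. edgeR called 1 higher in subfertile heifers, KLRG1, and 2 lower, PAX5 and GZMB. Of all genes tested 0.661% were called higher and 0.738% lower. Of the tested genes with a symbol, from which the markers came, 5.06% were called in either direction. DESeq2 called 3 of the 22 and voom only PAX5. The median log2 fold change of the 22 was -0.20, with 6 above and 16 below 0, while the median of all genes was 0.01.

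KLRG1, an inhibitory receptor of differentiated lymphocytes that also marks type 2 innate lymphoid cells, was at 2.01 ± 0.637 CPM in fertile and 4.40 ± 2.90 CPM in subfertile heifers (n = 6 each). It ranged from 1.21 to 2.84 CPM in fertile heifers and, in subfertile heifers, was 8.53 CPM in LM1259, 7.11 in LM1265, 4.57 in LM1246, 2.74 in LM1313, 2.31 in LM1283 and 1.14 in LM1251. The groups overlapped, and of the 2 libraries with the highest IL1RL1 only LM1265 was above the fertile range of KLRG1. The log2 fold change was 1.13 (SE 0.43, edgeR with Benjamini-Hochberg adjusted P = 0.9998), and the two-sided exact permutation p was 0.106. KLRG1 was called in 10 of 12 fits that left out a library, but not without LM1259 (0.82), without LM1265 (0.94) or with voom (0.91). The correlation of KLRG1 with IL1RL1 was 0.373 over 12 libraries and 0.029 once the group means were removed. KLRG1 was the only gene of the 8 type 2 lymphocyte markers with an identifier, and its part in the level of IL1RL1 was not tested.

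KIT, the stem cell factor receptor carried by mast cells and progenitors, was the only gene of the 10 basophil and mast cell markers with an identifier. In the subfertile libraries KIT was at 16.7 CPM in LM1313 and 14.4 in LM1265, and between 5.74 and 8.34 CPM in the other 4. In the fertile libraries it was at 16.6 CPM in LM1330, 14.0 in LM1244, 10.6 in LM1298, 10.3 in LM1262, 7.06 in LM1247 and 6.23 in LM1286. The 2 subfertile heifers with the highest IL1RL1 thus had the highest KIT of their group, whereas LM1330 had as much KIT with 1.09 CPM of IL1RL1.

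KIT did not pass the test between groups (10.8 ± 3.98 against 10.1 ± 4.42 CPM, log2 fold change -0.10, 95% interval -0.74 to 0.54, two-sided exact permutation p = 0.712). Its r with IL1RL1 was 0.115 in fertile heifers, 0.948 in subfertile heifers and 0.363 over all 12. Without LM1313 and LM1265 it was -0.251, so the positive relation rests on those libraries. The part of KIT-expressing cells in the level of IL1RL1 was not tested.

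CCR3, the eotaxin receptor of eosinophils and the only eosinophil marker of 10 with an identifier, was not called. It was at 62.6 ± 72.3 CPM in fertile and 29.4 ± 10.3 CPM in subfertile heifers (n = 6 each), with 207 CPM in LM1330 and 10.9 to 51.4 CPM in the other fertile libraries. LM1265 and LM1313 were at 32.7 and 34.2 CPM, near the subfertile median of 32.6 CPM. The log2 fold change was -1.09 (SE 0.55) with all libraries and -0.20 without LM1330, while CCR3 was called without LM1244 (-1.31) or LM1286 (-1.25), and the two-sided exact permutation p was 0.387. The r of CCR3 with IL1RL1 was -0.352.

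**Figure D3:**
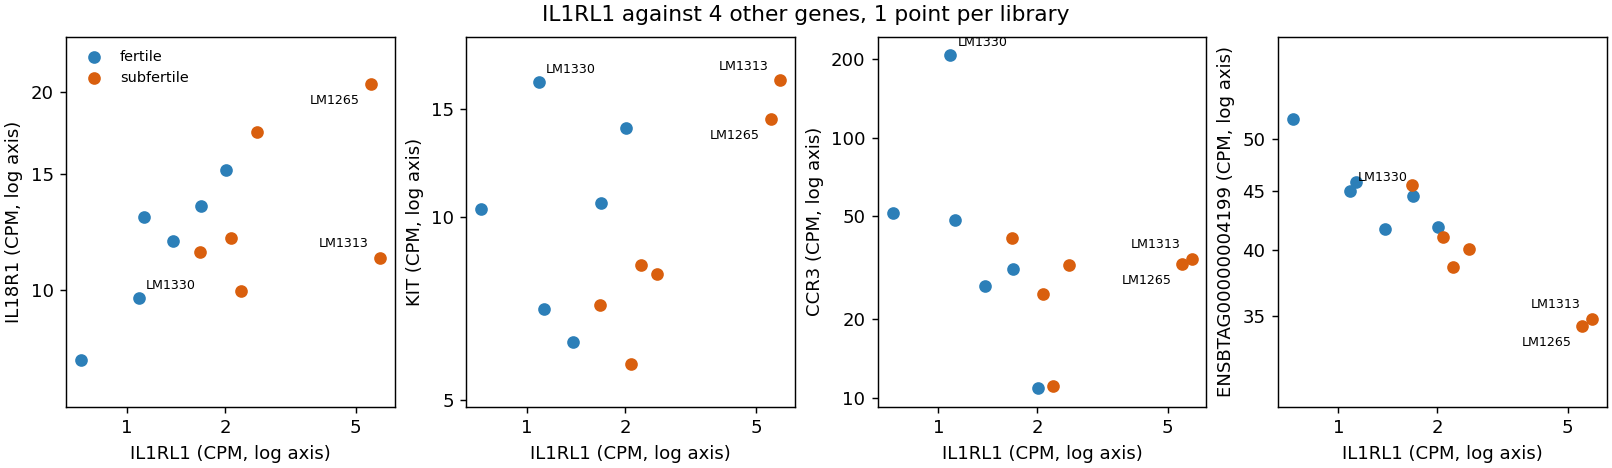
Level of IL1RL1 against IL18R1, KIT, CCR3 and ENSBTAG00000004199 in CPM on log axes, with 1 point for each fertile (blue) or subfertile (orange) library and LM1265, LM1313 and LM1330 named. KIT is high in LM1265 and LM1313 but equally so in LM1330, CCR3 is highest in LM1330 at 207 CPM, and ENSBTAG00000004199 falls along the whole range of IL1RL1 (r = -0.948).

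FOXP3, the transcription factor of regulatory T cells, had a log2 fold change of 0.19 (SE 0.35), between 0.035 without LM1262 and 0.36 without LM1246, and an r of 0.332 with IL1RL1. Its highest level, 5.05 CPM, was in LM1265, and LM1313 was at 3.93 CPM, below the subfertile median of 4.25 CPM. TNFRSF4, an activation receptor of T cells found on regulatory T cells, had a log2 fold change of -0.17 and an r of -0.306.

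Among the other cell type markers, PAX5, a B cell transcription factor, had a log2 fold change of -0.51 (SE 0.24) and a two-sided exact permutation p of 0.0519. GZMB, a cytotoxic granule protease, had a log2 fold change of -1.004 (SE 0.45), or -0.66 without LM1247, and a two-sided exact permutation p of 0.180. Their calls held in 4 of 12 fits that left out a library for each gene. Over 12 libraries r with IL1RL1 was -0.171 for PAX5 and -0.201 for GZMB.

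The summed level of the 4 T cell markers with an identifier was 694 to 1271 CPM in fertile and 603 to 1017 CPM in subfertile heifers, with an r of -0.002 with IL1RL1. For the 2 monocyte markers the sums were 12.02 to 57.5 and 21.8 to 86.3 CPM, with an r of 0.260. For the 3 neutrophil markers they were 67.9 to 235.9 and 85.2 to 255.1 CPM, with an r of -0.097. The ranges of these sums overlapped between the groups. Of all libraries LM1265 was the highest for both monocyte markers, VCAN (62.9 CPM) and CD68 (23.5 CPM), while LM1313 was at 9.74 and 12.1 CPM. VCAN had a log2 fold change of 0.70 (SE 0.50) and was not called. Without LM1265 it was 0.40, and without LM1244 it was 1.09 and was called.

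The 2 B cell markers summed to 367 to 750 CPM in fertile and 395 to 714 CPM in subfertile heifers (r = -0.387), and the 2 natural killer cell markers to 70.9 to 158 and 70.8 to 111 CPM (r = -0.242). The 3 platelet markers summed to 171 to 2208 CPM and 179 to 648 CPM (r = -0.270), and their largest differences were those of GP9 and ITGB3, with log2 fold changes of -1.22 (SE 0.76) and -0.95 (SE 0.53), neither of which was called. Without LM1330 these were -0.33 and -0.21, and without LM1244 ITGB3 was called at -1.17. Without LM1330, the library with the highest platelet sum, the log2 fold change of IL1RL1 was 1.24. None of the 6 erythroid markers and none of the 11 transcription factors of type 2 cells had an identifier.

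The genes that moved with IL1RL1 were then sought among the other 13011 genes tested. Over 12 libraries r ranged from -0.948 to 0.802, with quartiles of -0.176 and 0.173, and 26 genes had an r of 0.7 or more and 21 an r of -0.7 or less. Of such partners IL1RL1 thus had 47, while the median gene had 393.5 (quartiles 152 and 1181.25), and the median of the 1042 other genes within 0.5 log2 CPM of IL1RL1 was 181.5. IL1RL1 had more partners than 1.36% of all genes and than 2.88% of those at its level. Its partners numbered 122 without LM1313, 90 without LM1265 and 443 without both. Such counts may rise when fewer libraries remain. Those of other genes with libraries left out were not computed, so the rank of IL1RL1 without these libraries is not known. Genes named here were picked for their correlation, so their values are a description and no test of them is reported. All of them share the 12 libraries and the scaling factors with IL1RL1.

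The 10 genes with a symbol and the highest r were CACHD1, ANK1, VWCE, FBP1, RILP, ZNF174, PPFIBP1, WC1-12, SCML2 and IMPACT, with r from 0.791 to 0.691. The choice by r with a gene that is higher in subfertile heifers favours a group difference in these genes, so their calls between the groups are not given. Their median r was 0.725 over all libraries, 0.575 once the group means were removed and 0.580 without LM1313 and LM1265. After removing group means, r was at least 0.5 for 8 of 10.

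CACHD1, a modulator of voltage-gated calcium channels, had the highest r of the named genes, 0.791. It was 1.11 CPM in LM1244, 0.376 in LM1247, 0.121 in LM1262, 1.09 in LM1286, 1.16 in LM1298 and 1.45 in LM1330, and in subfertile heifers 1.33 CPM in LM1283, 1.53 in LM1259, 1.57 in LM1251, 1.82 in LM1246, 1.88 in LM1313 and 3.56 in LM1265. LM1262 was the lowest and LM1265 among the highest for both genes, and 5 of 6 subfertile libraries were above the fertile range of CACHD1. The relation was 0.744 within fertile and 0.764 within subfertile heifers, and 0.814 without LM1313 and LM1265.

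ANK1, an ankyrin of the membrane skeleton known from red blood cells, had an r of 0.781, with 0.779 within fertile and 0.797 within subfertile heifers. It ranged from 0.424 to 1.06 CPM in fertile heifers, and reached 4.05 CPM in LM1265 and 2.31 CPM in LM1313, the same 2 libraries that were highest for IL1RL1. LM1283, the subfertile library with the least IL1RL1, was also the lowest for ANK1, at 0.116 CPM. Such a level rests on few reads, since 0.727 CPM of IL1RL1 in LM1262 came from 12 reads. The same limit holds for the lowest levels of CACHD1, FBP1 and PDZD2. It holds for SCML2 in every library, at 0 to 0.845 CPM in fertile and 0.357 to 0.996 CPM in subfertile heifers. The r of ANK1 was 0.944 without LM1283, 0.678 without LM1265 and 0.510 without LM1313 and LM1265.

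FBP1, the gluconeogenic enzyme fructose-1,6-bisphosphatase, also peaked in these heifers, at 8.18 CPM in LM1265 and 2.15 CPM in LM1313, against 0.0482 to 0.902 CPM in all 10 other libraries. Its r was 0.730 over 12 libraries and 0.078 within fertile heifers, and 0.250 without LM1313 and LM1265. The relation of FBP1 to IL1RL1 therefore rested on those 2 libraries.

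RILP, an effector of RAB7 in lysosome transport, was at 9.84 CPM in LM1313 and at 4.91 CPM in LM1265, and its r fell from 0.729 to 0.555 without LM1313. ZNF174, a zinc finger protein, was highest in LM1265 at 12.5 CPM, had an r of 0.254 within fertile and 0.942 within subfertile heifers, and 0.372 without LM1313 and LM1265. PPFIBP1, a liprin of cell adhesion sites, kept an r of 0.777 without those libraries, but its r was 0.386 once the group means were removed.

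VWCE, a secreted protein with von Willebrand factor type C domains, was between 1.94 and 4.66 CPM in fertile and between 3.29 and 6.13 CPM in subfertile heifers, and LM1262 and LM1313 were its extremes as they were for IL1RL1. WC1-12, of the WC1 scavenger receptors of ruminant gamma delta T cells, had an r of 0.698 and was highest in LM1265 at 63.9 CPM. The WC1 genes are a family of close copies, so reads may be divided among them and this count is uncertain. SCML2, a polycomb group protein, and IMPACT, an inhibitor of the kinase GCN2, had r of 0.693 and 0.691, and without LM1313 and LM1265 of 0.595 and 0.617.

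**Figure D4:**
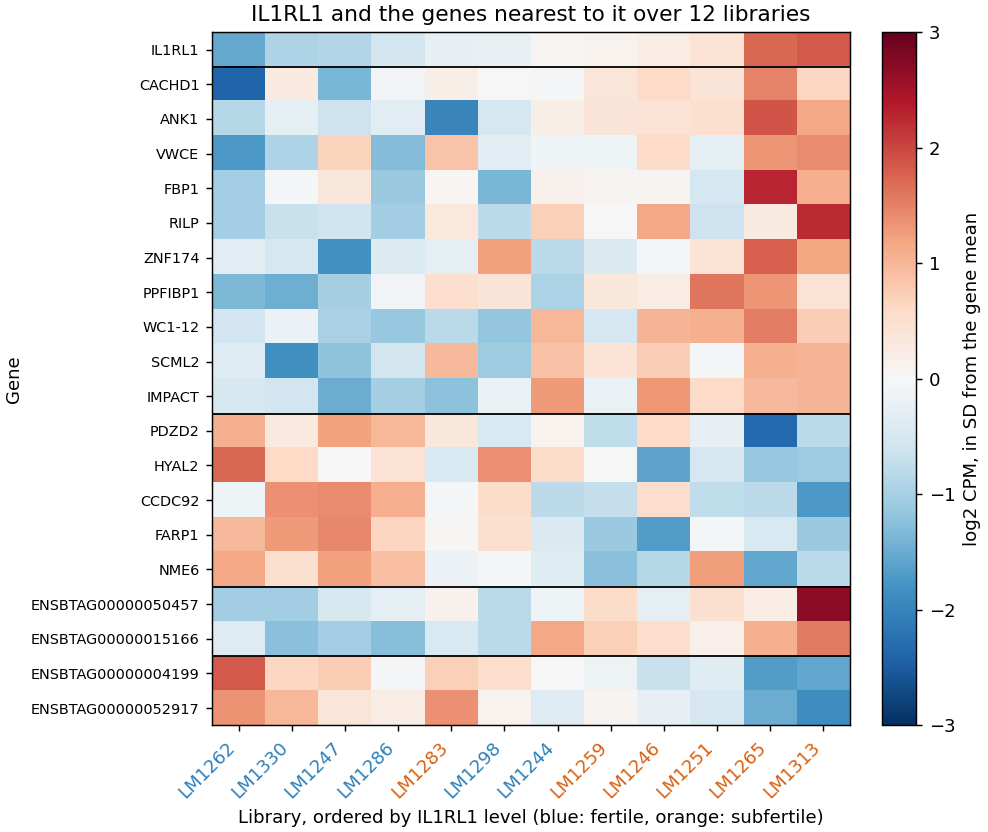
Log2 CPM of IL1RL1 and of the genes with the highest and lowest correlation with it, in SD from the mean of each gene (red above, blue below), with libraries ordered from the lowest to the highest IL1RL1 and named in blue (fertile) or orange (subfertile). LM1265 and LM1313 are high for most of the 10 named genes with r of 0.691 to 0.791 and low for most of the 5 with r of -0.701 to -0.818.

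The 5 genes with a symbol and the lowest r were PDZD2, HYAL2, CCDC92, FARP1 and NME6. PDZD2, a protein with PDZ domains, had an r of -0.818, and was at 0.0711 CPM in LM1265, its lowest library, against 1.58 CPM in LM1247, its highest. HYAL2, a cell surface hyaluronidase, had an r of -0.737, and its levels did not overlap, with 13.9 to 18.2 CPM in fertile and 10.8 to 13.9 CPM in subfertile heifers. The lowest fertile library, LM1247, was at 13.8986 and the highest subfertile library, LM1259, at 13.8967 CPM.

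CCDC92, a coiled-coil protein, was lowest in LM1313 at 2.04 CPM and had an r of -0.713. FARP1, a guanine nucleotide exchange factor, had an r of -0.710. NME6, of the nucleoside diphosphate kinase family, had an r of -0.701, with -0.825 within fertile and -0.364 within subfertile heifers. With group means removed, the r of HYAL2 was -0.389 and that of FARP1 -0.372, so part of the relation of each over 12 libraries was the difference between groups.

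The strongest relation of any gene was with ENSBTAG00000004199, which has no symbol in the tables used, at an r of -0.948. It was at 52.0 CPM in LM1262, 45.8 in LM1247, 45.1 in LM1330, 44.6 in LM1298, 41.9 in LM1244 and 41.7 in LM1286, and in subfertile heifers at 45.5 CPM in LM1283, 41.1 in LM1259, 40.1 in LM1251, 38.7 in LM1246, 34.9 in LM1313 and 34.4 in LM1265. The library with the least IL1RL1 had the most of this gene, and LM1265 and LM1313 had the least. Its r was -0.861 within fertile and -0.938 within subfertile heifers, and -0.884 without LM1313 and LM1265. With each library left out it was between -0.965 and -0.928, and with scaling to library size alone it was -0.781. These subsets belong to the same libraries in which the gene was picked for its r, so they are no separate check of it.

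ENSBTAG00000052917, also without a symbol, had an r of -0.913, with -0.948 within fertile and -0.935 within subfertile heifers, and -0.760 without LM1313 and LM1265. On the other side ENSBTAG00000050457 and ENSBTAG00000015166 had r of 0.802 and 0.791. ENSBTAG00000050457 was at only 0.483 to 0.686 CPM in fertile and 0.652 to 1.83 CPM in subfertile heifers, so its r rests on few reads. Being the extremes of 13011 values, these correlations are a description of these 12 libraries.

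The study inferred networks in each group by partial correlation with information theory on variance-stabilized values, and kept pairs at an absolute r of 0.95 or more that held at least 1 gene it had selected. Only the limit on r was taken over here, for Pearson r of log2 CPM over all pairs of tested genes. At that limit IL1RL1 had 74 partners in fertile heifers, 42 positive and 32 negative, and 20 in subfertile heifers, 11 positive and 9 negative. The median gene had 56 partners (quartiles 34 and 102) in fertile and 62 (32 and 169) in subfertile heifers. IL1RL1 thus had more partners than 63.8% of genes in fertile and than 6.31% in subfertile heifers, and, among genes at its level, more than 78.0% and 11.7%. The change between the groups was not tested.

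The lists of 74 and 20 partners shared 0 genes, and how many partners other genes share between the groups was not computed, so nothing particular to IL1RL1 is read from this count. The positive partners in fertile heifers had a median r of 0.015 with IL1RL1 in subfertile heifers, and the negative ones 0.134, so of the 74 partners 33 kept the sign of their r. Only 12 of the 74 and 5 of the 20 had a symbol.

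In fertile heifers the named positive partners included VWA8, a mitochondrial ATPase (r = 0.985), IGFLR1, a receptor of the tumor necrosis factor receptor family (0.983), C1GALT1, which builds the core of O-linked glycans (0.968), LRP8, a reelin receptor (0.964), and PRKCA, protein kinase C alpha (0.955). The named negative partners included GADD45GIP1 and MRPS16, components of the mitochondrial ribosome (-0.961 and -0.959). Of these 7 genes, only PRKCA had an absolute r above 0.5 in subfertile heifers, at 0.515.

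In subfertile heifers the named partners were SEC24C, a coat protein of vesicles leaving the endoplasmic reticulum (0.980), SUSD6 (0.956), GLS2, a glutaminase (-0.973), ANAPC5, a subunit of the anaphase-promoting complex (-0.960), and SUMF2 (-0.957). In this group LM1265 and LM1313 lay far above the other 4 libraries for IL1RL1, so those 2 heifers carried most of the weight in r.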

How the data were processed

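The deposited table holds raw counts: the authors extracted RNA from PWBCs in a single batch, made strand-specific poly(A) libraries, checked reads with FastQC 0.11.9 and MultiQC 1.12, mapped them with STAR 2.7.5 to ARS-UCD1.3 and counted genes with STAR and Ensembl release 109. No lane or date of each library was used here.

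Genes were kept with filterByExpr (minimum count 10), scaled with TMM and tested with the edgeR 4.0.16 quasi-likelihood F test in R 4.3.3 with group as the only term and Benjamini-Hochberg adjustment over 13012 genes. The study used DESeq2, so DESeq2 1.42.0 and voom of limma 3.58.1 were run as alternatives. Standard errors are the absolute log2 fold change divided by the square root of F. Single genes were also tested by two-sided exact permutation of mean log2 CPM (prior count 2) over 924 splits, where the smallest p is 0.00216. Correlations used log2 CPM. The steps were tested on simulated data.

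The gene, the lists and the tests were chosen with earlier results of these data known. Named genes are IL1RL1, its annotated neighbours, list genes that were called, belong to the receptor complex, have the largest changes in a list or lie closest to IL1RL1 by r, and the 10 genes with the highest and 5 with the lowest r that have a symbol. The 2 identifiers without a symbol at each end and the partners within groups were added after their values were seen. Some genes of the lists and partners are not reported here. Symbols came from supplementary tables (2906 identifiers, 12 others left out for ambiguous symbols). RefSeq assembly ARS-UCD2.0 was used for gene order only. Replicates are separate heifers, and no 2 libraries of a group agreed within sampling noise (smallest chi-square per gene 22.5). Alternatives were other scalings, gene filters, RTS in the model, other correlation measures and each library left out. Leaving out LM1265 and LM1313 together was chosen after seeing the data.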

Additional observations from a re-analysis of the deposited data

Results flagged for a closer look

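IL1RL1, the list genes and the genes of highest and lowest r over 12 libraries were screened in each group for a single library far from the other 5, by the ratio of its gap to the range of the group. Of 108 sets of 6 values from 54 genes, 17 had such a library, where chance flags about 1 in 20 groups if the values are normal and the groups independent. Neither holds here, since CPM values are skewed, all 17 were high values, the genes share libraries and some were picked for their r, so the count is not compared with that rate. IL1RL1 had none in either group, since LM1265 and LM1313 lay close to each other.

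In the fertile group LM1330 stood apart for CCR3 (207 CPM), ITGB3 (1930 CPM), ITGA2B (246.8 CPM), GP9 (31.2 CPM), CD44 (366.2 CPM) and MAPK14 (349 CPM), 3 of which are platelet genes. LM1244, the fertile library with the most IL1RL1, stood apart for RILP (5.75 CPM), WC1-12 (50.2 CPM), SCML2 (0.845 CPM), ENSBTAG00000015166 (15.1 CPM) and MAP3K7 (74.4 CPM). LM1262, the fertile library with the least IL1RL1, stood apart for IL1B (28.4 CPM).

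In the subfertile group LM1265 stood apart for CACHD1 (3.56 CPM), FBP1 (8.18 CPM) and PRF1 (108 CPM), and LM1313 for ENSBTAG00000050457 (1.83 CPM) and GZMB (8.44 CPM). CACHD1, FBP1 and ENSBTAG00000050457 had been picked for their correlation with IL1RL1, which is highest in those libraries.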

How the results depend on the processing

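No paired analysis was possible because the replicate numbers only name heifers in accession order. IL1RL1 stayed higher in subfertile heifers under every alternative run, at 0.66 log2 without LM1265 and LM1313 together and 1.06 to 1.45 with 1 library left out. Of the 34 other list genes, 3 were called, but 1 with voom, 1 with library size alone, 1 with RTS in the model, and 0 (without LM1259) to 5 (without LM1244) with a library left out. The cause was not tested. Of the 10 named genes of highest r, 4 were again among the top 10 by Spearman rho, 1 with group means removed, 1 without LM1265 and LM1313 together, and 3 to 9 with 1 library left out, with 3 without either of LM1265 and LM1313. Of the 5 named genes of lowest r, 3 recurred by rho and with variance-stabilized counts, 2 with library size alone, 1 with group means removed, 0 without LM1265 and LM1313 together and 1 (without LM1286, LM1265 or LM1313) to 4 with 1 left out. The 47 genes at an absolute r of 0.7 or more became 146 by rho, 99 with group means removed, 443 without the pair, where 10 libraries remain, and 52 to 122 with 1 left out. At a limit of 0.90 the partners within groups were 277 in fertile and 91 in subfertile heifers, and with variance-stabilized counts at 0.95 they were 76 and 20. REL reversed with voom (-0.065) and with RTS (-0.073), and CXCL8 with voom (0.15). With 1 library left out, the log2 fold change changed sign for IL18 (-0.25 to 0.11), MYD88 (-0.035 to 0.072), IRAK1 (-0.14 to 0.068), MAP3K7 (-0.045 to 0.16), REL (-0.26 to 0.13), CXCL8 (-0.48 to 0.10), KIT (-0.30 to 0.061), TNFRSF4 (-0.33 to 0.015), CD68 (-0.10 to 0.20), CXCR2 (-0.43 to 0.91), S100A9 (-0.087 to 0.38) and ITGA2B (-0.47 to 0.011), none of which was called with all libraries. The 12 to 38 reads of IL1RL1 in a fertile library limit every correlation with it.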
